A study of Mus musculus with 2 samples.

Results

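Stromal fibroblasts of the mouse uterus that carried transcripts of Frzb, Ngfr and Nog numbered 540 of the 7076 cells in the study, and 540 of its 2257 gated fibroblasts. A cell was a droplet barcode with at least 1000 UMIs (unique molecular identifiers, each standing for 1 captured transcript), at least 500 genes and at most 20% mitochondrial UMIs. A gated fibroblast had at least 3 UMIs of Pdgfra, Dcn and Lum together and none of the leukocyte gene Ptprc or the epithelial gene Epcam. Each gated fibroblast was then scored for its summed UMIs of 4 gene sets, which were Frzb, Ngfr and Nog, then Ptx3, Has2 and Cxcl5, then Pi16, Pcolce2 and C1qtnf3, and last Scube1 and A2m. A member of the Frzb Ngfr Nog fibroblasts had at least 3 UMIs of the first set and more of it than of any other set. The counts of all these genes chose the cells, so their levels describe the choice and are not findings.

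Cells came from whole uteri and were profiled in droplets, in a study of how the myometrium and its extracellular matrix fare when PRICKLE1, a protein of planar cell polarity, is lost. The control library (Prickle1 f/f) and the cKO library (Prickle1 f/f MiC) were each made from 3 pooled female C57BL/6J mice of 6 months, so both groups carry the f/f alleles. MiC is not spelled out in the labels, nor are the cells in which it acts, and wild-type is the genotype entered for each library. The tissue was digested for 5 hours before capture, and transcripts were read from their 3′ ends. Each group is 1 library, so no test was possible, no value has a replicate error, and no difference between the libraries can be told apart from differences between pools or preparations. Intervals are at 95% and cover counting error only. Pairs of values below give the library labelled control first and the library labelled cKO second.

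Frzb encodes a secreted frizzled-related protein that binds Wnt ligands, and Nog encodes noggin, a secreted antagonist of bone morphogenetic proteins (BMPs). Ngfr encodes the p75 receptor of neurotrophins. Stromal fibroblasts of the uterus surround the epithelium and the muscle, make most of the interstitial matrix, and respond to oestrogen, progesterone, Wnt and BMP signals as the endometrium prepares for implantation. Thbs2 (thrombospondin 2, a matricellular protein) and Nppc (C-type natriuretic peptide, which signals through the receptor Npr2) were proposed as further markers of the cells and were not used to choose them. In the GRCm38 assembly, Frzb lies at chr2:80411970-80447625, Ngfr at chr11:95568818-95587735, Nog at chr11:89300638-89302332, Thbs2 at chr17:14665500-14694235, Nppc at chr1:86666291-86670571 and Prickle1 at chr15:93499114-93595891, all on the minus strand.

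Prickle1 itself was sparse in the members, with 13 and 32 UMIs, or 3.86 and 7.98 CPM (UMIs scaled to the same large total in each population) of the members' summed UMIs, with intervals of 2.06 to 6.60 and 5.46 to 11.3 CPM. Its log2 ratio of labelled cKO over labelled control was 0.55 after 5 CPM was added to each value, the scale used for all ratios here, which understates differences of low genes. The interval of the ratio itself, with nothing added, was 0.08 to 2.10. Prickle1 was therefore not lower in the members of the library labelled cKO, nor in its smooth muscle cells (3 and 28 UMIs). The labels do not say which exons are removed, and a 3′ tag outside the removed part checks nothing. This goes for every direction drawn below from these labels.

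The 236 members of the library labelled control and the 304 of the library labelled cKO had medians of 13453.5 and 12277 UMIs per cell, against 6272 and 8714.5 in the other gated fibroblasts. Those others include the gated fibroblasts with under 3 UMIs of every set, at 2556 and 3243.5 UMIs. The Ptx3 Has2 Cxcl5 fibroblasts, at 15726 and 11988.5 UMIs, and the Pi16 Pcolce2 C1qtnf3 fibroblasts, at 14567 and 10230 UMIs, were deeper than the members under the control label, as were the Scube1 A2m fibroblasts under the cKO label, at 18046 UMIs. Barcodes present among the cells of both libraries numbered 6, and 0 of them was a member in both. Defining fibroblast genes were present at high levels, with Dcn at 4797 and 5348 CPM, Lum at 1795 and 1452 CPM, and Col1a2 at 2612 and 2060 CPM. Schwann cell markers, looked up since Ngfr also marks glia of nerves, summed to 32 and 48 UMIs over all members, and 0 and 5 members had 3 or more of them. Of the 7 Schwann markers, 3 and 5 were at 0. Endothelial markers reached 3 UMIs in 16 and 20 members, pericyte markers in 7 and 8, macrophage markers in 5 and 3, epithelial markers in 6 and 1, and haemoglobin and other erythroid markers in 3 and 2. Smooth muscle markers, several of which fibroblasts also express, reached 3 UMIs in 176 and 227 members, at 823 and 858 CPM in sum. Markers of perineurial and endoneurial cells reached 3 UMIs in 44 and 47 members (18.6% and 15.5%, against 16.9% and 19.4% of the other gated fibroblasts). Those of mesothelium did so in 50 and 57 members (21.2% and 18.8%, against 16.9% and 13.7%). The part of these cell types in the results was not tested. In the library labelled cKO, 61.2% of the members' endothelial UMIs and 75.3% of their erythroid UMIs came from 1 cell each. The 31 and 32 members with 3 UMIs or more of endothelial, pericyte, macrophage or erythroid markers were left out in an alternative, whose values stand beside the results they touch. The other gated fibroblasts were not filtered in it.

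Among the markers that did not choose the cells, Thbs2 was at 3594 CPM (3530 to 3658) and 3319 CPM (3263 to 3376) in the members. The next levels in order were those of the Ptx3 Has2 Cxcl5 fibroblasts at 2235 and 2393 CPM and of the Pi16 Pcolce2 C1qtnf3 fibroblasts at 1831 and 1576 CPM. Gated fibroblasts with under 3 UMIs of every set had 980 and 825 CPM, and the Scube1 A2m fibroblasts of the library labelled cKO had 327 CPM. The intervals of these sets did not touch one another in either library. Only 6 Scube1 A2m cells came from the library labelled control, at 956 CPM (752 to 1199). The 13 and 29 cells tied between sets were at 4842 and 1274 CPM, above the members in the library labelled control. Immune cells (Ptprc-positive cells) held 2.25 and 6.07 CPM. They were chosen to have no UMI of Pdgfra, Dcn, Lum or Epcam, so immune cells carrying such fibroblast RNA were left out beforehand. Their low levels and shares of Thbs2 and Nppc are therefore partly set by the choice and are not a check. Nearly empty droplets, which hold free RNA, had 184 and 221 CPM of Thbs2. With every cell thinned to 2000 UMIs, 75.9% (69.7 to 81.4) and 72.4% (66.9 to 77.4) of members still had a Thbs2 UMI, against 50.1% and 43.8% of the other gated fibroblasts and 0.536% and 0.616% of Ptprc-positive cells. The thinned shares of the Ptx3 Has2 Cxcl5 fibroblasts were 69.2% (61.0 to 76.7) and 61.5% (56.2 to 66.7), with an interval that overlaps that of the members in the library labelled control. Without thinning the shares of members were 86.4% and 83.9%, those of the immune cells 1.65% and 1.88%, at median depths of 5932.5 and 4336 UMIs in the immune cells.

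Nppc stood less apart. Its level was 433 CPM (411 to 456) and 297 CPM (281 to 315) in the members, against 392 and 364 CPM in the Ptx3 Has2 Cxcl5 fibroblasts and 87.7 and 120 CPM in the Pi16 Pcolce2 C1qtnf3 fibroblasts. Members were thus above the Ptx3 Has2 Cxcl5 fibroblasts in the library labelled control, with intervals that overlap, and below them in the library labelled cKO. The tied cells were higher than both under the control label, at 935 and 358 CPM. A Nppc UMI was found in 89 of 236 and 107 of 304 members, and the 3 highest cells held 27.9% and 26.7% of the UMIs. After thinning to 2000 UMIs, 20% (14.9 to 25.9) and 17.8% (13.7 to 22.7) of members had one, against 11.1% and 11.1% of other gated fibroblasts and 0.179% and 0.123% of immune cells. In the Ptx3 Has2 Cxcl5 fibroblasts it was 11.2% (6.53 to 17.5) and 16.5% (12.8 to 20.8), with intervals that overlap those of the members in both libraries.

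**Figure D1:**
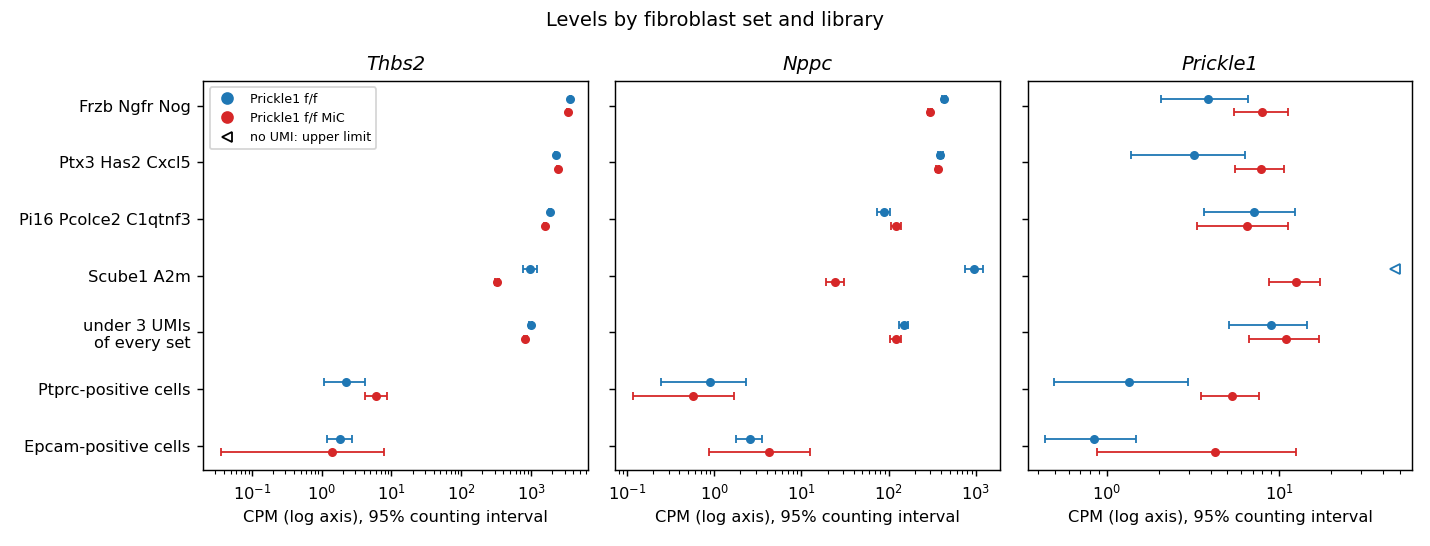
Levels of Thbs2, Nppc and Prickle1 in CPM (log axis) for each fibroblast set, for Ptprc-positive and for Epcam-positive cells, with 1 point per library and its 95% counting interval; a triangle marks the upper limit where no UMI was counted. Of the sets drawn, Thbs2 is highest in the Frzb Ngfr Nog fibroblasts in both libraries, Nppc is about as high in the Ptx3 Has2 Cxcl5 fibroblasts, and the Scube1 A2m points of the library labelled control rest on 6 cells.

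The members made up 26.4% (23.6 to 29.5) of 893 and 22.3% (20.1 to 24.6) of 1364 gated fibroblasts. The log2 ratio of these shares was -0.25 (-0.46 to -0.03). Of all cells, by contrast, they were 6.76% and 8.48%, a log2 ratio of 0.33 (0.09 to 0.56). The sign therefore turned with the denominator: gated fibroblasts were 25.6% of the cells labelled control and 38% of those labelled cKO, and Epcam-positive cells 851 of 3490 against 75 of 3586. When cells were thinned to 2000 UMIs before the rule was applied, 61 of 749 and 100 of 1182 gated fibroblasts were members, a log2 ratio of 0.05. No direction of the share held across these measures.

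At the edge of the rule, 48 and 31 gated fibroblasts had 2 UMIs of Frzb, Ngfr and Nog, more than of any other set, and stayed outside. Another 38 and 29 cells had exactly 3 and were members. Thbs2 was at 1123 and 793 CPM in the cells just outside and at 2036 and 624 CPM in those just inside, and Nppc at 220 and 135 CPM against 366 and 596 CPM. A further 109 and 282 gated fibroblasts had 3 UMIs or more but as many or more of another set. The median member had 8 and 9 UMIs of the 3 genes and the highest 61 and 83.

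The 3 genes did not always occur together. All 3 were detected in 73 of 236 members (30.9%, 25.1 to 37.3) and 104 of 304 (34.2%, 28.9 to 39.8). Frzb and Ngfr without Nog was the next most common pattern under the control label, in 52 cells, and Ngfr and Nog without Frzb under the cKO label, in 62 cells. Frzb alone was seen in 12 and 11 cells, Ngfr alone in 24 and 31, and Nog alone in 20 and 16. In the members Frzb was at 209 and 215 CPM (log2 ratio 0.04), Ngfr at 309 and 394 CPM (0.35) and Nog at 276 and 389 CPM (0.49). These genes chose the cells, so the ratios are a description only.

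Members were split by which of the 3 genes had most UMIs in the cell, giving 55 and 52 cells led by Frzb, 95 and 125 by Ngfr, 71 and 110 by Nog, and 15 and 17 ties. Each subset was set against the other members that led with another gene, over 7682 genes with a mean of at least 10 CPM. A gene was called where the log2 ratio was at or past 1 the same way in both libraries. Cells led by Ngfr had 25 genes higher (0.325% of those tested) and 6 lower (0.0781%). Cells led by Nog had 4 higher (0.0521%) and 33 lower (0.43%), and cells led by Frzb 5 higher (0.0651%) and 24 lower (0.312%). The genes named here were picked after their values were seen.

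Among the genes higher in cells led by Ngfr was Star, which carries cholesterol into mitochondria for steroid synthesis. Star was at 52.4 and 58.5 CPM there, against 5.02 and 6.44 CPM in cells led by Frzb and 14.7 and 7.38 CPM in cells led by Nog. In the library labelled cKO, 57.3% of the members' Star UMIs lay in 1 cell. Foxl2, a forkhead transcription factor of the ovary and the uterine stroma, was at 40.5 and 103 CPM under Ngfr, 23.8 and 16.1 CPM under Frzb and 5.25 and 6.56 CPM under Nog. Aldh1a2, which makes retinoic acid, was at 76.1 and 341 CPM under Ngfr against 9.45 and 3.28 CPM under Nog. So the Ngfr end and the Nog end of the members differed in these genes in both libraries.

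The same order was seen for Rxfp1, the relaxin receptor, at 12.6 and 56.9 CPM under Ngfr and 1.05 and 1.64 CPM under Nog. Igfbp4, a binding protein of insulin-like growth factors, was at 134 and 277 CPM under Ngfr and 48.3 and 57.4 CPM under Nog. Fst (follistatin, an antagonist of activins) was at 366 and 231 CPM under Ngfr, 192 and 169 CPM under Frzb and 43.1 and 77.1 CPM under Nog. All 3 were thus higher in cells led by Ngfr than in cells led by Nog.

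Cells led by Nog had more Bmp2, a BMP ligand of the decidualizing stroma, at 77.7 and 89.4 CPM against 37.0 and 40.6 CPM under Ngfr and 18.8 and 45.1 CPM under Frzb. The other 3 calls were Prok2, at 36.8 and 37.7 CPM against 11.2 and 20 CPM under Ngfr, and Il1rn and Ccl4, whose UMIs lay to over 84% in 1 cell of each library. Thbs2 was lowest where Ngfr led, at 3042 and 2170 CPM, against 4186 and 4065 CPM under Frzb and 3837 and 4702 CPM under Nog. Of the 5 genes higher in cells led by Frzb, Rsad2, Iigp1 and Isg15 are among the interferon-stimulated genes named below. The others were Ch25h and Dtx3l, whose kind was not looked at. Under the cKO label these 5 genes had from 7 (Isg15) to 20 (Ch25h) UMIs each in cells led by Frzb. Rsad2 was at 699 and 19.3 CPM there, against 28.6 and 0.527 CPM under Ngfr. Of the Rsad2 UMIs of all members under the control label, 65.9% came from 1 cell, so that value rests on it.

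**Figure D2:**
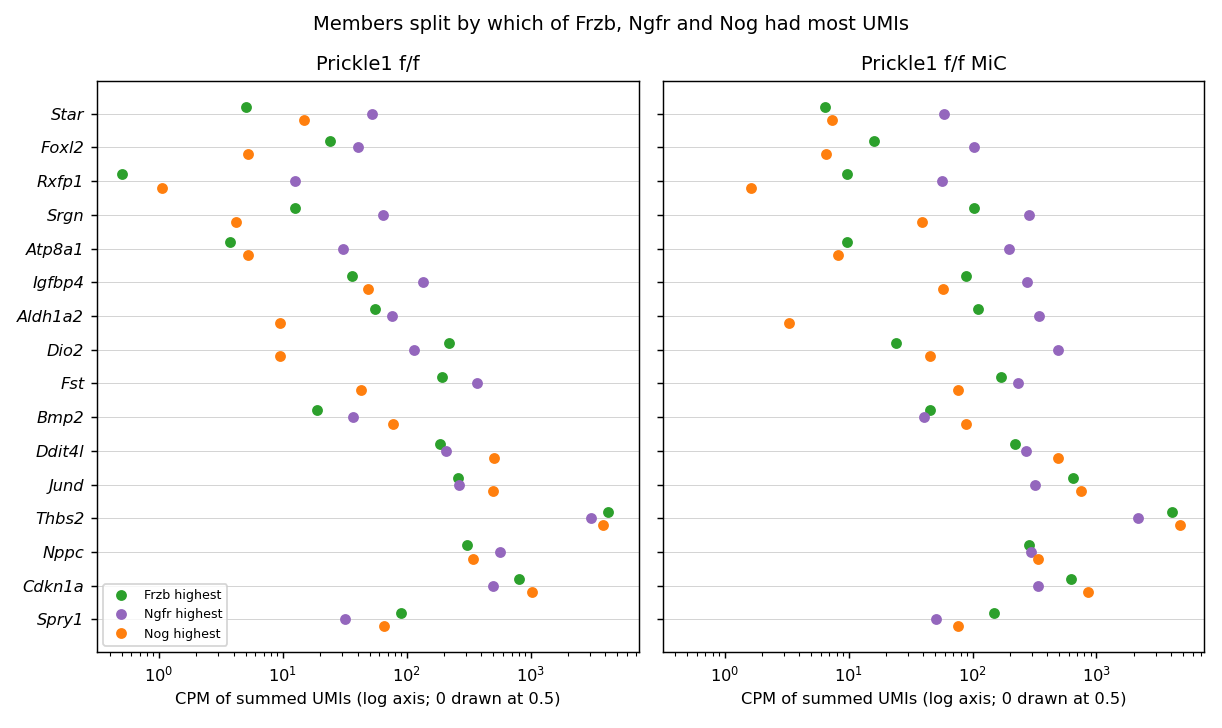
Levels in CPM (log axis, 0 drawn at 0.5) of genes in members split by which of Frzb, Ngfr and Nog had most UMIs, 1 panel per library and 1 point per subset. Star, Foxl2, Aldh1a2 and Fst lie further right in cells led by Ngfr than in cells led by Nog in both libraries, and Bmp2 lies to the right in cells led by Nog.

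Members were next set against all other gated fibroblasts of the same library. Every gene of the gated cells shares the libraries that chose the members, so this is a description. Of 7830 genes with a mean of at least 10 CPM, not counting those of the rule, 13 (0.166%) were at or past a log2 ratio of 1 in both libraries and 29 (0.37%) at or past -1. The gated fibroblasts outside held 6 and 134 Scube1 A2m fibroblasts, and without these the number higher was 26.

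The 12 genes with the highest ratios are taken in turn. Oxtr, the oxytocin receptor, was at 395 and 480 CPM in members and 165 and 234 CPM outside. Prlr, the prolactin receptor, was at 83.7 and 98.0 CPM against 37.6 and 43.3 CPM. Nrp1 (neuropilin 1, a co-receptor of semaphorins and VEGF) was at 437 and 501 CPM against 175 and 209 CPM. Inhbb, the beta B subunit of activin and inhibin, was at 1110 and 1777 CPM against 398 and 861 CPM. All 4 were higher in members in both libraries.

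Adh1, an alcohol dehydrogenase that acts on retinol, was at 124 and 165 CPM in members and 52.9 and 31.7 CPM outside. Abcc3, an organic anion exporter, was at 41.0 and 35.9 CPM against 10.3 and 8.31 CPM. Cacna1g, a T-type calcium channel subunit, was at 65.9 and 50.4 CPM against 28.9 and 18.2 CPM. Slc38a5, a transporter of neutral amino acids, was at 21.4 and 19.7 CPM against 5.63 and 3.44 CPM, and Fgd3, Siah3 and Nexmif complete the list at log2 ratios of 1.03 to 1.53. The remaining gene, the haemoglobin gene Hbb-bs, had the highest ratio under the control label. In each library 1 cell held most of its UMIs, 88.1% and 72.9%. Without the members that carried markers of other cell types the ratios were -0.29 and -3.31. Hbb-bs is itself one of those markers and the cells outside were not filtered, so a fall was built into that alternative.

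Inflammatory genes were among those lower in members. Of the 17 inflammatory genes tested other than those of the rule, 5 were at or past -1 in both libraries and 13 were below 0 in both, against 33.2% of all genes below 0 in both. Their median log2 ratio was -0.83 and -0.90, against -0.02 and -0.01 over all genes. The neutrophil attractant Cxcl2 was at 15.1 and 34.9 CPM in members and 316 and 366 CPM outside. Il6 was at 52.2 and 87.8 CPM against 231 and 570 CPM, and Cxcl1 at 207 and 133 CPM against 714 and 686 CPM. The rule leaves out cells with more Ptx3, Has2 and Cxcl5 than Frzb, Ngfr and Nog. The cells outside hold the 146 and 356 Ptx3 Has2 Cxcl5 fibroblasts that it keeps out of the members. The part of the rule in these values was not tested. These values do not show how members compare with each other set singly. Csf2rb2, Cd74, Cck, Cd200 and Mustn1 were the other 5 of the 8 lowest, each under 16 CPM in the members of both libraries.

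**Figure D3:**
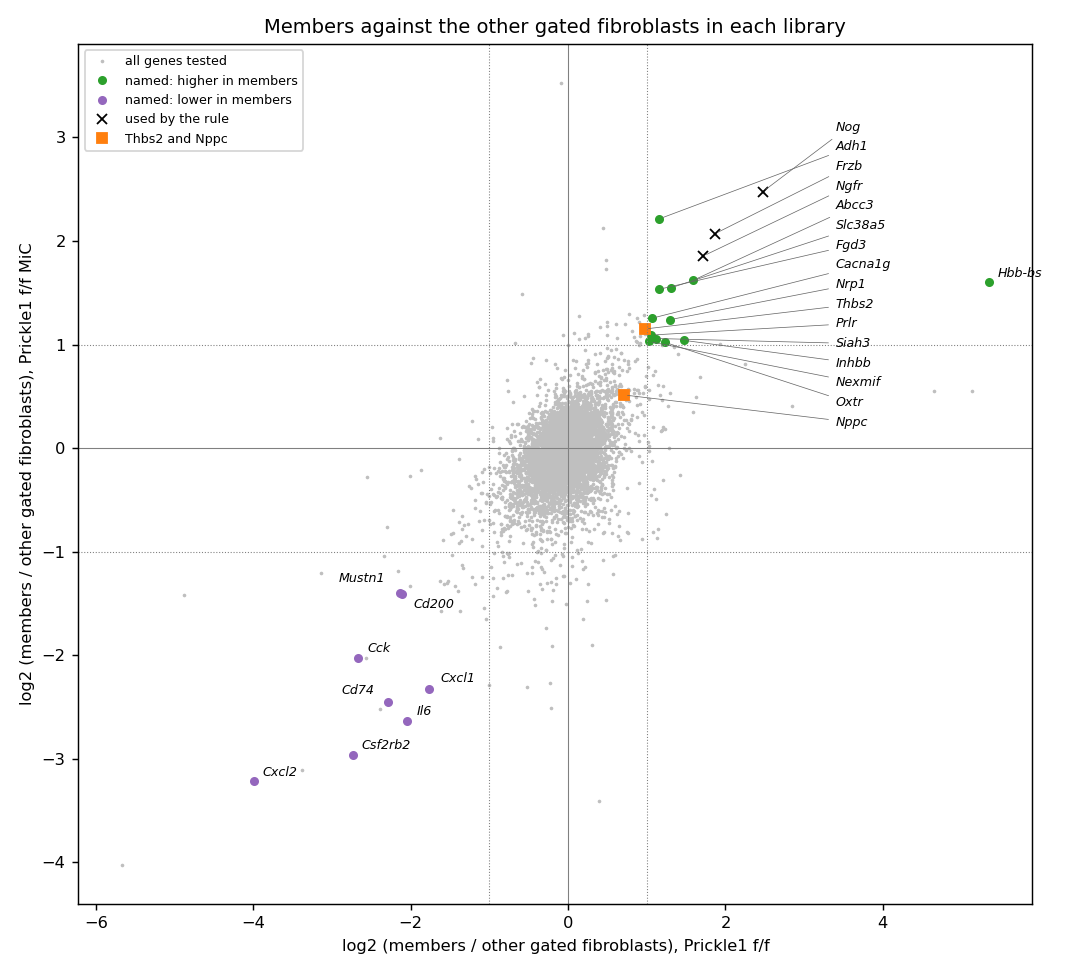
Log2 ratio of members over the other gated fibroblasts, the library labelled control on the horizontal axis and the library labelled cKO on the vertical axis, 1 grey point per gene tested and dotted lines at 1 and -1. Named genes higher in members (green) and lower (purple) lie in the upper right and lower left, the rule's own genes are crosses, and Thbs2 lies near 1 on both axes while Nppc lies nearer to 0.

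The rest compares members of the library labelled cKO with members of the library labelled control. Of 7694 genes with a mean of at least 10 CPM, 64 (0.832%) were at a log2 ratio of 1 or above and 67 (0.871%) at -1 or below. In the other gated fibroblasts the numbers were 149 of 7997 (1.86%) and 88 (1.1%). The median over all genes was 0.12, and 65.5% of genes lay above 0. Scaling by the median of ratios moved that median to 0.00, the share above 0 to 50% and the calls to 48 higher and 87 lower. A list's median is therefore to be read against 0.12.

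Wnt antagonists were near this background. Of 6 Wnt antagonists expressed at 10 CPM or more, the rule gene Frzb (0.04) included, none was at or past 1 in size, 4 were above 0, and the median was 0.08. Sfrp4, a relative of Frzb, was at 82.8 and 120 CPM (0.51) and Notum, an enzyme that inactivates Wnt proteins, at 24.3 and 11 CPM (-0.88). In the other gated fibroblasts Notum was at 7.40 and 19.8 CPM, the opposite order. Sfrp1, Dkk3 and Kremen1 were at ratios between -0.05 and 0.31. The antagonists as a group thus showed no common direction, and their median was -0.04 under median of ratios scaling.

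Of 19 Wnt ligands 3 were expressed at 10 CPM or more, with a median of 0.92 in members and 0.91 in the other gated fibroblasts, against 0.12 for all genes in members. Wnt5a, a non-canonical ligand, was at 26.7 and 55.9 CPM (0.94), Wnt9a at 11 and 25.2 CPM (0.92) and Wnt4, needed for decidualization, at 56.1 and 51.1 CPM (-0.12). Wnt5a was at 33.1 and 145 CPM in the other gated fibroblasts, so the higher value under the cKO label was not limited to members. Of 13 Wnt receptors and agonists 10 were above 0 and none past 1, with a median of 0.33 (0.23 under median of ratios scaling). Ror2, a receptor of Wnt5a, was at 163 and 218 CPM (0.41), Fzd7 at 16.6 and 29.4 CPM (0.67), and Rspo3, a Wnt agonist, at 29.4 and 21.2 CPM (-0.39). Among 5 Wnt target genes, with a median of 0.09, Axin2 was at 102 and 140 CPM (0.44).

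BMP ligands were few. Bmp2 was at 42.1 and 54.4 CPM (0.33), Gdf10 at 43.6 and 51.9 CPM (0.23), Bmp6 at 22.6 and 17.5 CPM (-0.30) and Bmp4 at 13.7 and 7.98 CPM (-0.52). Of 7 BMP antagonists expressed, Nog included, 5 were above 0, with a median of 0.44. Twsg1 was at 85.8 and 118 CPM (0.44) and Bmper at 20.2 and 30.7 CPM (0.50), while Fst was at 229 and 165 CPM (-0.46). With the members that carried markers of other cell types left out the median was 0.26. Of 13 BMP receptors and targets 10 were above 0, with a median of 0.13, close to that of all genes. The targets Id1, Id2 and Id3 were at ratios of 0.10, -0.19 and -0.30, and Id4 at 0.67.

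Of 16 genes of the neurotrophin group 5 passed 10 CPM, the rule gene Ngfr (0.35) included, 3 were above 0 and 1 was called lower, with a median of 0.22. Ntrk2, the receptor of brain-derived neurotrophic factor, was at 62.6 and 61.6 CPM (-0.02). Maged1, an adaptor that binds Ngfr, was at 164 and 192 CPM (0.22), and Bex3 at 11.3 and 14.7 CPM (0.28). None of these 3 genes was at or past 1 in size.

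Of 5 genes of the natriuretic peptide system expressed at 10 CPM or more, 3 were above 0 and 2 below, with a median of 0.01 against 0.12 for all genes, and 1 was called. Nppc was at 433 and 297 CPM, a log2 ratio of -0.53 (-0.65 to -0.43), and -0.34 without the members that carried markers of other cell types. Npr2, the receptor of C-type natriuretic peptide, was at 12.8 and 30.9 CPM, a ratio of 1.02 (0.77 to 1.81), in 36 of 236 and 80 of 304 members. It was at 1 or above in 12 of 18 alternatives, between 0.85 and 1.21. Alternatives that change only the filter on low values leave a gene's own ratio as it is. They count as kept in advance in these numbers, here and below. Npr1, the receptor of the atrial peptide, was at 24.0 and 15.7 CPM (-0.49), Furin at 111 and 120 CPM (0.11) and Pde5a at 11.6 and 11.7 CPM (0.01). In the other gated fibroblasts Nppc was at 263 and 207 CPM (-0.34) and Npr2 at 12.4 and 20.6 CPM (0.56), the same signs.

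Collagens are among the matrix genes the study asks about. Of 12 collagen genes expressed in members, 9 were below 0 and 3 above, with a median of -0.20 against 0.12 for all genes, and 1 was called. The counting interval lay below 0 for 6 of them and above 0 for 1, Col14a1, named after its value was seen, at 123 and 155 CPM (0.33, 0.16 to 0.52). Col3a1 was at 1414 and 654 CPM (-1.11, -1.18 to -1.04), Col1a1 at 2112 and 1583 CPM (-0.41) and Col1a2 at 2612 and 2060 CPM (-0.34). Col5a1, Col5a2 and Col5a3 were at -0.48, -0.37 and -0.76. The collagen VI genes Col6a1, Col6a2 and Col6a3 lay at -0.06, 0.00 and -0.02. Without the members that carried markers of other cell types the median was -0.07, and that of Col3a1 -0.87.

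The other gated fibroblasts had a collagen median of 0.49 with 11 of 12 above 0. Without the Scube1 A2m fibroblasts, nearly all of which came from the library labelled cKO, it was 0.20 with 7 of 12 above 0. By set, the median was 0.33 in Ptx3 Has2 Cxcl5 fibroblasts, 0.24 in Pi16 Pcolce2 C1qtnf3 fibroblasts and -0.31 in the cells with under 3 UMIs of every set. Col3a1 was below 0 in each of these, at -0.36, -0.83 and -0.82. In the library labelled control all 12 collagens were higher in members than outside, with a median log2 ratio of 1.05, and in the library labelled cKO the median was 0.17. With the Scube1 A2m fibroblasts left out of the comparison these medians were 1.05 and 0.70. The difference between members and others was not tested, and collagen levels within members were uneven, with Col1a1 from 0 to 443 and from 0 to 239 UMIs a cell around medians of 7 and 5.

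Among 15 matricellular proteins 7 were above 0 and 8 below, with a median of -0.11. Thbs2 was at -0.11 and its paralog Thbs1 at 3163 and 3670 CPM (0.21), while Thbs3 was at 32.1 and 26.9 CPM (-0.21). Smoc2, a calcium-binding matrix protein, was the 1 call, at 13.1 and 46.6 CPM (1.52, 1.36 to 2.34), in 29 of 236 and 70 of 304 members. Tnc (tenascin C) was at 211 and 154 CPM in members (-0.44) and at 177 and 390 CPM in the other gated fibroblasts (1.12). Sparc was at 2447 and 2161 CPM (-0.18) and Postn at 226 and 207 CPM (-0.12). The group had no common direction.

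Genes of elastic fibres and crosslinking were spread more widely. Of 19 expressed, 14 were above 0, with a median of 0.23 (0.10 under median of ratios scaling), and 1 was called. Tgm2, a transglutaminase that crosslinks matrix proteins, was at 35.0 and 152 CPM (1.97, 1.83 to 2.41), with a UMI in 47 of 236 and 117 of 304 members. Fbln1 was at 207 and 411 CPM (0.97) and Emilin2 at 44.2 and 90.5 CPM (0.96). Mfap2, of the elastic microfibrils, was at 42.1 and 18.7 CPM (-0.99), and elastin itself, Eln, at 304 and 227 CPM (-0.41) in members but at 95.3 and 159 CPM (0.71) outside. Basement membrane genes were above 0 in 12 of 14, with a median of 0.13, and Col4a1 was at 913 and 1151 CPM (0.33). Of 7 small leucine-rich proteoglycans, counting the rule genes Dcn and Lum, 4 were below 0, with a median of -0.27.

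Matrix proteases and inhibitors had 9 of 20 above 0 and a median of -0.10. Mmp3 (stromelysin 1) was the 1 call, at 813 and 272 CPM (-1.56, -1.68 to -1.48), and kept to -1 or below in all 18 alternatives. The other gated fibroblasts had the same difference, at 865 and 274 CPM (-1.64). Mmp2 was at 435 and 270 CPM (-0.68). Adamts1, a protease of versican, was at 890 and 1412 CPM (0.66) in members against 945 and 881 CPM (-0.10) outside, and Plau, the urokinase plasminogen activator, at 91.1 and 157 CPM (0.75) against 111 and 122 CPM (0.13).

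Of 21 hormone receptors and regulators of the uterine stroma 16 were above 0, against 65.5% of all genes, with a median of 0.27 (0.15 under median of ratios scaling) and no call. Pgr, the progesterone receptor, was at 656 and 1006 CPM (0.61, 0.54 to 0.69) and Esr1, oestrogen receptor alpha, at 115 and 161 CPM (0.47). Hoxa10 was at 51.6 and 89.5 CPM (0.74) and Hoxa11 at 15.7 and 24.9 CPM (0.53). The same genes had a median of 0.28 in the other gated fibroblasts, with Pgr at 385 and 676 CPM (0.80). Members had the higher Pgr level of the 2 populations in both libraries. Foxl2 and Hand2 were not among the 21 genes and were named after their values were seen. Their ratios in members were 1.00 and 1.07, at 1 or above in 8 and 14 of 18 alternatives.

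Of 12 TGF-beta genes 9 were above 0, with a median of 0.29. The activin subunits went apart, with Inhbb at 1110 and 1777 CPM (0.68, 0.62 to 0.74) and Inhba at 1072 and 583 CPM (-0.87, -0.96 to -0.80). Outside the members Inhba was at 623 and 580 CPM (-0.10). Tgfbr3 (betaglycan) was at 85.2 and 167 CPM (0.93) and Tgfb2 at 359 and 255 CPM (-0.49). Of 7 retinoid genes 1 was called higher and 1 lower. Aldh1a2 was at 48.7 and 196 CPM (1.90, 1.76 to 2.26), with a UMI in 22 and 57 members, and at 45.3 and 261 CPM (2.40) in the other gated fibroblasts. Its ratio in members was at or past 1 in 17 of 18 alternatives and 0.62 at its lowest. Rarres2 (chemerin) was at 272 and 147 CPM (-0.86). Among 8 genes of insulin-like growth factors, Igfbp4 was at 84.3 and 169 CPM (0.96) and Igfbp5 at 466 and 287 CPM (-0.69), around a median of 0.17.

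**Figure D4:**
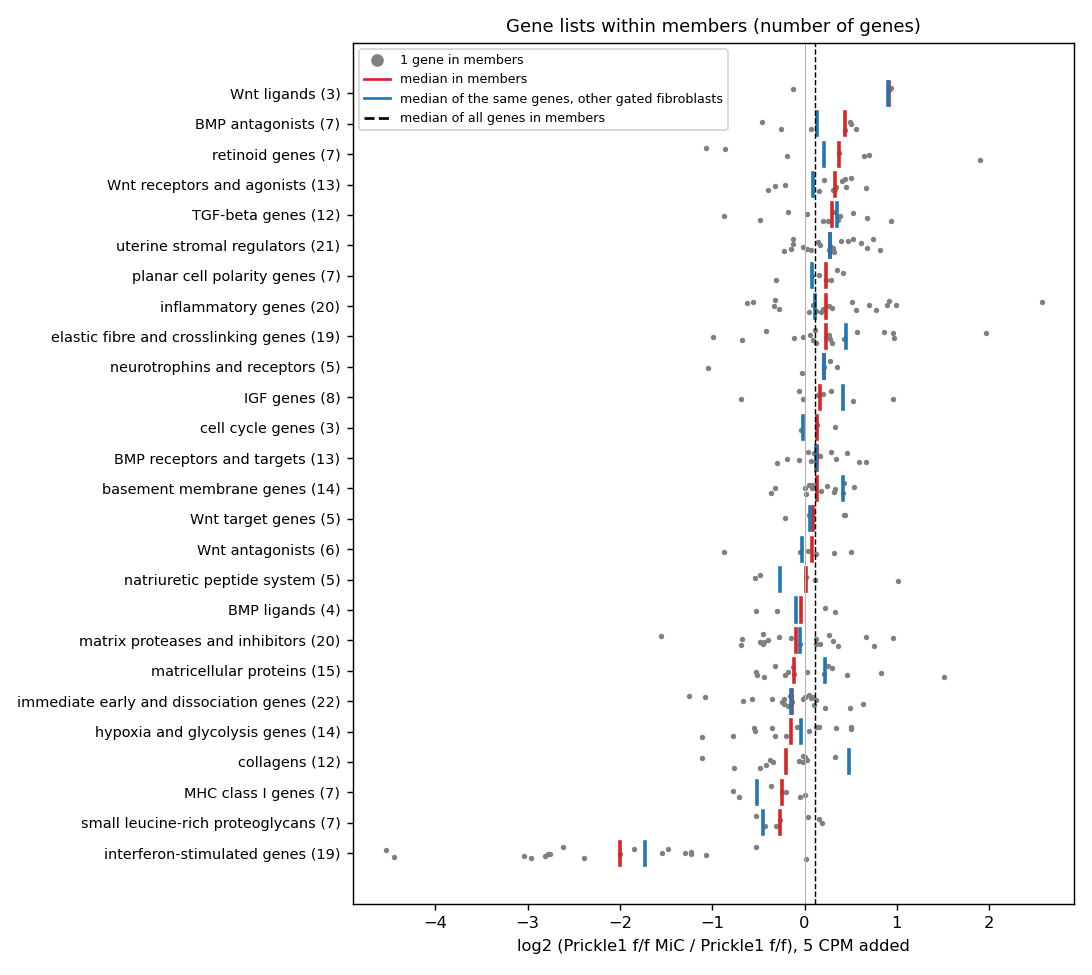
Log2 ratio of labelled cKO over labelled control in members for each gene with a mean of 10 CPM or more (grey points), grouped by gene list, with the number of genes in brackets, the list's median in members (red) and in the other gated fibroblasts (blue) and the median of all genes (dashed). The interferon-stimulated genes lie apart at a median of -2.00, collagens at -0.20 in members and 0.49 in the others, and most other lists lie within 0.5 of 0.

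The highest ratio that rested on many cells was that of Ctla2a, an inhibitor of cathepsin L-like proteases. It had 791 and 13112 UMIs, or 235 and 3270 CPM, a log2 ratio of 3.77 (3.70 to 3.91). A UMI was found in 94 of 236 and 147 of 304 members, and the highest cell held 14.8% and 13.1%. It was at or past 1 in all 18 alternatives, between 3.35 and 4.35. In the other sets the ratios were 2.58 in Ptx3 Has2 Cxcl5 fibroblasts, 2.40 in Pi16 Pcolce2 C1qtnf3 fibroblasts and 2.48 in the cells with under 3 UMIs of every set. Droplets of 10 to 100 UMIs, which hold free RNA, had 129 and 635 CPM of it. The part of free RNA in the result was not tested beyond subtracting it, which left the ratio at 3.80.

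Atp8a1, a phospholipid flippase, was at 15.7 and 101 CPM (2.35, 2.27 to 3.12), in 16 and 57 members, with 58.5% of the UMIs under the control label in 1 cell. Srgn (serglycin, a proteoglycan of secretory granules) was at 31.8 and 176 CPM (2.30), in 27 and 80 members, and Scd2, a fatty acid desaturase, at 51.1 and 239 CPM (2.12), in 61 and 98 members. Srgn was also at 342 and 525 CPM in droplets of 10 to 100 UMIs. All 3 were higher under the cKO label outside the members as well, at 2.65, 2.91 and 2.33. In members each was at or past 1 in 17 of 18 alternatives. The lowest values were 0.54 for Atp8a1, 0.25 for Srgn and 0.90 for Scd2. Saa3, an acute phase protein, had 0 and 99 UMIs in 8 cells, with 93.9% in 3 of them, and was at least 27.7-fold higher against a floor of 3 counts per library. With the minimum of the rule lowered to 2 UMIs its ratio was -1.11. Scube1, at 4.45 and 38.9 CPM (2.22), belongs to the rule.

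The other 4 of the 10 highest ratios rested on single cells. Cyp1a1, an enzyme induced through the aryl hydrocarbon receptor, had 0 and 323 UMIs, 99.4% of them in 1 cell, at least 90.5-fold higher against the same floor. Apold1, an endothelial gene, had 0 and 102 UMIs with 87.3% in 1 cell, at least 28.6-fold higher, and the pericyte gene Rgs5 had 3 and 124 UMIs with 57.3% in 1 cell. Ednrb, an endothelin receptor, had 8 and 112 UMIs with 87.5% and 89.3% in 1 cell. Without the members that carried markers of other cell types the ratios were 0.16 for Cyp1a1, 0.23 for Apold1, 0.09 for Rgs5 and 0.00 for Ednrb. Ctla2a was at 3.86 in the same alternative. Rgs5 is itself one of those markers, so its fall there was built in. Cyp1a1, Apold1 and Rgs5 were at or past 1 in 16 of 18 alternatives each, and Ednrb in 14.

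Enzymes of cholesterol synthesis were seen near the top of the ranking and were named after their values were seen, so their number stands for nothing beyond itself. Idi1 was at 11.6 and 60.6 CPM (1.98), Fdps at 3.86 and 22.9 CPM (1.66) and Cyp51 at 22 and 71.3 CPM (1.50). Fdft1 was at 4.75 and 20.2 CPM (1.37) and Hmgcs1 at 38 and 89.5 CPM (1.14). The lowest values over the alternatives were 0.37 for Idi1, 0.31 for Fdps, 0.59 for Cyp51, 0.46 for Fdft1 and 0.26 for Hmgcs1. Insig1 was at 0.72, and Sqle, of the same pathway, at 87.9 and 97.5 CPM (0.14). The other gated fibroblasts had ratios of 2.12 for Idi1, 1.56 for Cyp51 and 0.69 for Sqle, so the difference was present outside the members too.

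**Figure D5:**
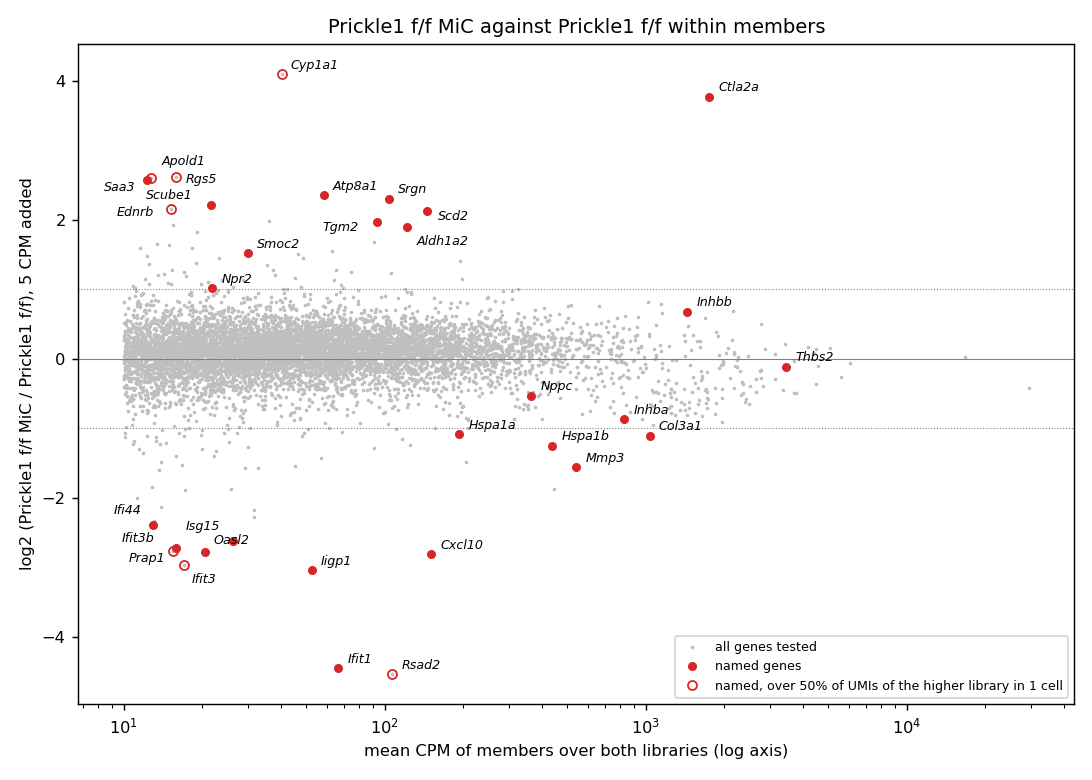
Log2 ratio of labelled cKO over labelled control in members (5 CPM added) against the mean level in CPM (log axis), 1 grey point per gene tested and dotted lines at 1 and -1. Named genes are red, and open circles mark those with over 50% of the UMIs of the higher library in 1 cell; Ctla2a stands alone at high level at 3.77, and Rsad2 and Ifit1 are lowest at -4.54 and -4.45.

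The lowest ratios were those of interferon-stimulated genes, which cells switch on after type I interferon. Of 31 listed genes in the files 19 were expressed at 10 CPM or more in members, 17 were at -1 or below and 18 below 0. Their median was -2.00, against 0.12 for all genes and -1.72 for the same genes in the other gated fibroblasts. With each gene's highest cell left out in both libraries the median was -1.62. Of the 10 lowest genes of all, 9 were on this list.

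The promoters of 4 of them are shown with the motif that interferon-activated factors bind, since this list had the lowest ratios in the members. The 4 were picked by name and not by rank, and all of them hold the motif. Isg15 (-2.62) is shown, while Iigp1 (-3.04), Cxcl10 (-2.81), Oasl2 (-2.78) and Ifit3b (-2.76), with lower ratios, are not. The motif was searched as GAAA, any 2 bases and GAAA again, on both strands (TTTC, any 2 bases and TTTC on the other), in the 160 bases before each start. Matches may overlap, and capitals mark them. Sequences are from RefSeq, GRCm38.p6, each 5′ to 3′ on the gene's strand.
Rsad2, chr12:26456453-26456612, minus strand: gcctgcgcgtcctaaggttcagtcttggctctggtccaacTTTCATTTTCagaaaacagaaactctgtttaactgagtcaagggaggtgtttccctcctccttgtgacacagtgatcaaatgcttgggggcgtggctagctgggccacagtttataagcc
Ifit1, chr19:34640729-34640888, plus strand: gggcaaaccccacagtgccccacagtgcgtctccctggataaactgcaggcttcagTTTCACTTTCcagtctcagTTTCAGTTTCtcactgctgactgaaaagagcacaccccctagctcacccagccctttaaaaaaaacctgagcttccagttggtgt
Ifit3, chr19:34583369-34583528, plus strand: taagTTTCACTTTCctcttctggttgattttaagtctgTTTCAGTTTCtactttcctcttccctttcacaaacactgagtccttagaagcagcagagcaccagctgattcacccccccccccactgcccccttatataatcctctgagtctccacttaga
Isg15, chr4:156200819-156200978, minus strand: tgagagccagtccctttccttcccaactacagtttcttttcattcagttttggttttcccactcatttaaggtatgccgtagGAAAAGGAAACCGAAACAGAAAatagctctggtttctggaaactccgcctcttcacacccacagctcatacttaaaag

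The Rsad2 window holds 1 match, those of Ifit1 and Ifit3 hold 2 each, and that of Isg15 holds 3 overlapping ones. Of the 19 expressed genes 14 had an entry among the promoters and 8 of these held the motif, namely Bst2, Gbp2, Ifit1, Ifit3, Ifit3b, Isg15, Rsad2 and Slfn5. The share over all 32851 promoter entries was 1.72% (565). That share is per entry, while each of the 14 genes counted once if any of its entries held a match. These are matches of letters and not shown sites. Slfn5, which holds one, was at 44.8 and 45.4 CPM (0.02) in members.

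Rsad2 (viperin, an antiviral enzyme) had 706 and 17 UMIs, or 210 and 4.24 CPM, a log2 ratio of -4.54 (-6.42 to -4.94). These lay in 15 and 3 members, with 65.9% of those under the control label in 1 cell, and the ratio was -3.61 with the highest cell left out. Ifit1, which binds viral RNA, had 444 and 5 UMIs in 20 and 3 members (-4.45), and -3.94 without the highest cell. Ifit3 had 115 and 0 UMIs and was at least 45.6-fold lower against the floor of 3 counts per library. Isg15, a ubiquitin-like modifier, had 164 and 15 UMIs in 32 and 8 members (-2.62, -4.57 to -2.94). Oasl2 had 133 and 6 UMIs in 25 and 5 members (-2.78), and the GTPase gene Iigp1 329 and 30 UMIs in 20 and 7 members (-3.04). Cxcl10, a chemokine, was at 268 and 33.9 CPM (-2.81).

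Most members of the library labelled control carried few of these transcripts. The median member had 4 and 1 UMIs of the 19 genes, 32 of 236 and 101 of 304 members had none, and 17 and 2 had 50 or more. The highest cell held 29.3% and 10.0% of the UMIs and the 10 highest 63.2% and 36.4%. After thinning to 2000 UMIs, 49.1% (42.3 to 55.9) and 28.6% (23.5 to 34.1) of members had at least 1 such UMI. Among the other gated fibroblasts the shares were 55.4% and 36.5%. Both the number of cells with many such UMIs and the share of cells with any were lower under the cKO label.

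The same sign was seen in other cells. In Ptprc-positive cells Rsad2 was at 2269 and 255 CPM and Ifit1 at 860 and 129 CPM. In Epcam-positive cells Rsad2 was at 432 and 2.84 CPM, and in droplets of 10 to 100 UMIs at 329 and 57.4 CPM. Counts were low in the Pi16 Pcolce2 C1qtnf3 fibroblasts under both labels, with 9 and 3 UMIs of Rsad2 and 11 and 13 of Isg15. Free RNA in the droplets had the same sign, and subtracting its profile at 5% of each sum left the list's median at -1.98. The 5% was assumed for both libraries and not measured, so the part of free RNA in this list was not tested. The gene outside the list among the 10 lowest was Prap1, an epithelial secretory protein. It had 105 and 2 UMIs in 67 and 2 members, and stood at 11317 and 249 CPM in the droplets of 10 to 100 UMIs. At 5% that profile exceeded the level of Prap1 in the members of both libraries, so subtracting it set both values to 0. The ratio of 0.00 that results was fixed by this setting, and the part of free RNA in the difference was not tested.

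Other stress and inflammatory lists were nearer to 0. Of 20 inflammatory genes, which include the rule genes Ptx3, Has2 and Cxcl5, 15 were above 0, with a median of 0.23 and 1 call, Saa3. Il6 was at 0.70, Ptgs2 at 48.4 and 86.5 CPM (0.78) and Ccl2 at 1232 and 989 CPM (-0.32). Of 7 MHC class I genes 6 were below 0, with a median of -0.25. Of 22 immediate early and dissociation genes 2 were called lower and 13 were below 0, with a median of -0.14. The heat shock genes Hspa1a, at 264 and 122 CPM (-1.08), and Hspa1b, at 620 and 258 CPM (-1.25), were the calls, with 56.3% and 54.1%, and 49.1% and 36.0%, of their UMIs in 3 cells.

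Of 14 hypoxia and glycolysis genes Egln3, a prolyl hydroxylase, was at 25.2 and 8.98 CPM (-1.11), Mt1 at 960 and 558 CPM (-0.78) and Adm at 491 and 700 CPM (0.51), around a median of -0.14. Of 3 expressed cell cycle genes and 7 planar cell polarity genes none was called, with medians of 0.14 and 0.24. Prickle2, a paralog of Prickle1, was at 42.1 and 47.6 CPM (0.16) and Dvl1 at 39.2 and 53.9 CPM (0.41).

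Cell-to-cell variation among members was measured by the Fano factor (variance over mean) of counts thinned to 2000 UMIs, which is 1 for pure counting noise. Over 3201 genes with a mean of at least 0.1 UMI the median was 1.13 and 1.13. Hbb-bs, Malat1, Hspa1b, Hba-a2, Ccl2, Hspa1a, Hba-a1, Hspa5, Col1a2 and Gm42418 had the 10 highest values in the lower of the libraries. Hspa1b was at 32.6 and 23.5, Ccl2 at 15.9 and 18.9, Hspa5, a chaperone of the endoplasmic reticulum, at 10.6 and 10.4, and Col1a2 at 14.9 and 10.1. Thbs2 followed at 10.5 and 9.31, with quartiles of 4 to 69.25 and 3 to 59.25 UMIs a cell around medians of 19 and 16. The members were therefore uneven in Thbs2, in collagen and in stress genes under both labels.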

How the data were processed

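The authors deposited unfiltered, raw UMI counts for every gene in every barcode, which Cell Ranger 4 made per the file headers (6.1.1 and mm10 per the submitters' processing notes), with no normalization. Cells, gated fibroblasts and members were taken by the thresholds given in the report with Python 3.11.15, numpy 2.4.6, scipy 1.17.1 and scanpy 1.11.5. The libraries held 45035801 and 34261441 UMIs. Doublets were kept, since the automatic threshold of Scrublet marked 4 of 7076 cells. UMIs were summed per library and class and scaled to CPM. Ratios were log2 after adding 5 CPM, for genes with a mean of at least 10 CPM, and called at 1 or more in size. Levels carry exact Poisson, shares Clopper-Pearson and ratios exact conditional intervals, and counts of 0 a floor of 3 counts. Named genes were the extremes of each ranking, up to 4 per list, and the listed Wnt, BMP, neurotrophin, natriuretic peptide and thrombospondin genes at 10 CPM or more. Others are said to be named after their values were seen. Some listed genes are not reported here by name. The scripts were tested on simulated counts. The members and gene lists were chosen with earlier results of these data known.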

Additional observations from a re-analysis of the deposited data

Results flagged for a closer look

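In 8 of 7694 genes tested, members and the other gated fibroblasts without Scube1 A2m fibroblasts moved opposite ways between the libraries. Both ratios had to be at least 0.5 in size, with counting intervals on opposite sides of 0. Opposite signs of smaller size were not counted. With 1 library per group these differences were not tested. Il11, a cytokine of decidualization, was at 149 and 71.6 CPM in members (-1.01) and at 98.8 and 156 CPM in the others (0.63). Timp1, an inhibitor of matrix metalloproteases, was at 152 and 92.0 CPM (-0.69) against 121 and 204 CPM (0.73). Flrt3 was at 13.7 and 7.23 CPM (-0.61) against 8.14 and 18.5 CPM (0.84), and Inmt at 8.90 and 15.5 CPM (0.56) against 78.0 and 25.3 CPM (-1.45). The 4 haemoglobin genes Hba-a1 (-1.48), Hba-a2 (-0.99), Hbb-bt (-0.70) and Hbb-bs (-0.68) had ratios of 3.30, 3.32, 1.99 and 3.12 in the others. Of the members' erythroid UMIs, 85.7% and 75.3% lay in 1 cell of each library.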

How the results depend on the processing

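No paired analysis was possible because each group is 1 library. The share of members turned sign with cells thinned to 2000 UMIs (0.0549) and as a share of all cells (0.33). For genes higher and lower under the cKO label (64 and 67), the counts were 1068 and 842 with thinned cells, 106 and 105 without the filter on low values, 18 and 19 at a mean of 50 CPM, 41 and 43 with 10 CPM added, and 113 higher with 1 CPM added. For members over other gated fibroblasts (13 and 29), they were 41 and 203 with thinned cells, 23 and 45 with 1 CPM added, 7 and 18 with 10 CPM added, and 8 and 9 at a mean of 50 CPM. They were 8 higher without Frzb in the set, 6 without Nog and 26 without Scube1 A2m fibroblasts, and 54 lower from per-cell CPM. Thinning and the filter change how many UMIs or genes enter, and the cause of the other shifts was not tested. Single genes that turned sign were Saa3 (-1.11 at 2 UMIs), Ccl4 (0.82 without high doublet scores), and with thinned cells Scube1 (-1.10), Ednrb (-1.40), Dio2 (-0.12) and Col3a1 in members over others under the control label (-0.51). Without Ngfr in the set Dio2 (-0.0874), Hand2 (-0.0336), Col3a1 over others (-0.0833) and Hbb-bs (-0.12) turned. Hbb-bs over others also turned at 5 UMIs (-1.63), thinned (-3.47 and -3.71), without Frzb (-1.43), from per-cell CPM (-0.24) and without members with other markers (-0.29 and -3.31). A fall in the last was built in, since Hbb-bs is itself one of those markers. Of 52 named genes at or past 1, 16 stayed so in all 18 alternatives. Dropping the filter on low values or raising it to a mean of 50 CPM leaves a gene's own ratio unchanged. No named gene could fail those settings, which are counted among the 18. The settings that leave out each gene's highest cell, members with other markers, or Scube1 A2m fibroblasts were chosen after seeing the data. Depth limits genes under about 10 CPM, such as Prickle1.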
